A study of Mus musculus with 12 samples.

Results

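The genes described here are the ligands and receptors of the 4 classical axon guidance systems, measured in sorted cells of the mouse aorta and the fat around it. They were taken by symbol from the deposited count table: every semaphorin of classes 3 to 7, plexin, EphA or EphB receptor, ephrin, Slit, Robo, netrin and Unc5 symbol, with Nrp1, Nrp2 and Dcc added. This gave 70 of 33352 genes, made up of 34 ligands, 34 receptors and 2 further symbols, Unc50 and Unc5cl, which match the letters of the name pattern but are not Unc5 receptors. They are counted with the rest. The antisense transcript Plxna4os1 was left out. The name pattern uses no measured value, but it was set with earlier results of these data known.

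Poly(A) RNA was sequenced from 4 populations sorted by flow cytometry, with 3 libraries each and 12 in all. All came from wild-type male CD-1 mice aged 13 weeks, so that sex, age and wild-type status are the same in every group. CD-1 is an outbred stock, so a shared genotype beyond that is not implied. The labels give them as perivascular progenitor cells (Progenitor), perivascular intermediate cells (Intermediate) and a pair of smooth muscle populations, SMC1 and SMC2, and the series is titled for the lineage of thermogenic fat around vessels. Progenitor and Intermediate are together called the stromal populations here. How the sort was gated is not given in the sources used here. The labels number the libraries without tying a number to an animal, so a p-value here reflects only how much the libraries vary, which may in part be technical.

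Guidance cues are secreted or membrane-bound proteins that steer growing axons by attraction or repulsion, and the same proteins guide vessels and migrating cells. Secreted class 3 semaphorins signal through neuropilins joined to plexins, while most other semaphorins bind plexins directly. Slits bind Robo receptors, netrins bind Dcc and Unc5 receptors, and ephrins on one cell bind Eph receptor kinases on its neighbour, with signals running into both cells. In the vessel wall, ephrin-B2 marks arteries and its receptor Ephb4 marks veins, and class 3 semaphorins and netrins act on the sympathetic fibres that run along arteries.

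Library totals ran from 13258631 to 22647175 counts. The 8 fibroblast markers summed to 15823 to 21082 CPM (a gene's counts scaled to a common library size) in the stromal libraries against 181 to 1322 in the SMC libraries, and the 8 smooth muscle markers to 19080 to 36302 CPM in the SMC libraries against 265 to 640 in the stromal ones. The marker levels thus match the labels of the SMC populations, and the stromal populations carried fibroblast markers. In sorted bulk RNA, fewer cells that express a gene and less RNA of it per cell cannot be told apart. Levels below are in CPM with the SD of 3 libraries, a change is given on the log2 scale ± its standard error, and a gene is called changed at an adjusted p under 0.05 in edgeR's quasi-likelihood test, adjusted by Benjamini-Hochberg over all genes tested.

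Most of the family was expressed in these cells. Of the 70 genes, 50 reached a mean of 4 CPM in at least 1 population and 20 stayed below it in every population, with highest means of 0.0628 to 3.23 CPM. The low genes were Slit1, Sema4d, Sema4f, Sema4g, Sema7a, Efna3, Efna4, Efnb3, Ntn5, Unc5cl, Plxnb3, Dcc, Epha10, Epha5, Epha6, Epha8, Ephb1, Robo2, Robo3 and Unc5a. Among them is Dcc, the attractive receptor for netrin-1, at 0.541 ± 0.0759 in Progenitor and 0.212 ± 0.266 in Intermediate, and 0.108 ± 0.0648 in SMC1 and 0.675 ± 0.58 in SMC2 CPM. Of the 70, 64 passed the filter on low counts and were tested. Ntn5, Unc5cl, Dcc, Epha6, Epha8 and Unc5a did not pass it, and their counts over all 12 libraries summed to 43, 77, 81, 49, 10 and 41.

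Levels of different genes can be compared only per length, here as CPM per kilobase of exon. On that scale the most abundant guidance ligand was Ntn4 in Intermediate, at 137 CPM per kb, followed by Ntn4 in SMC2 at 85.8, Sema3c in SMC1 at 65.2 and Sema3f in SMC1 at 56.2. Slit3 stood at 53.8 CPM per kb in Progenitor. The most abundant receptors were Epha3, at 64.6 CPM per kb in Intermediate, and Nrp1, at 48.9 in the same population. Ligands summed to 256, 385, 318 and 208 CPM per kb in Progenitor, Intermediate, SMC1 and SMC2, and receptors to 103, 201, 114 and 65.0. In these means both sums were highest in Intermediate and lowest in SMC2. For the ligands, the place of Intermediate above SMC1 rests on Ntn4, at 137 CPM per kb in Intermediate and 15.7 in SMC1. By library, the ligand sum of Progenitor replicate 1 (208) lay within the range of SMC2 (181 to 235). Epha3 and Nrp1 made up much of the receptor sum in Intermediate.

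The population with the highest mean was Intermediate for 19 of the 50 expressed genes (38%), SMC1 for 18 (36%), SMC2 for 8 (16%) and Progenitor for 5 (10%). Over all 12574 genes at that level the shares were 25.7%, 30.9%, 24.8% and 18.6%. The highest population mean was 5.26 times the lowest in the median of the 50 genes, with a range of 1.31 to 27.4, against a median of 2.05 over all 12574 genes. In a test for any difference among the 4 populations, 55 of 64 guidance genes (85.9%) were called, where 66.2% of all tested genes were.

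**Figure D1:**
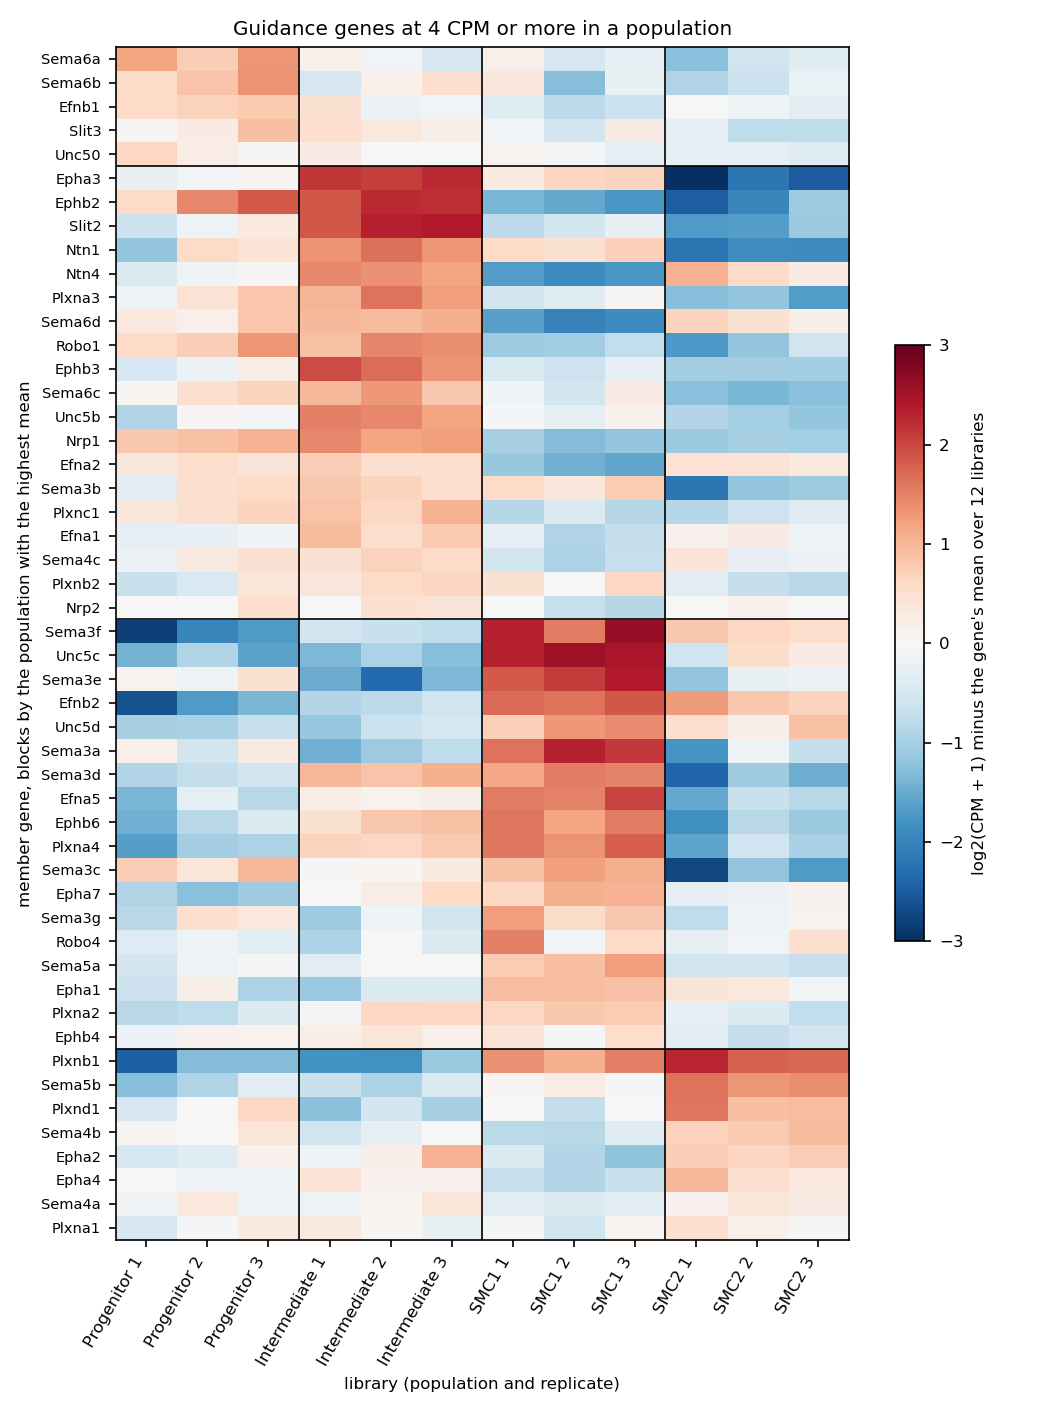
Heat map of the 50 guidance genes with at least 4 CPM in a population, 1 row a gene and 1 column a library, coloured by log2(CPM + 1) minus the gene's mean over the 12 libraries (red above, blue below). Rows are in blocks by the population with the highest mean, which holds 5 genes for Progenitor, 19 for Intermediate, 18 for SMC1 and 8 for SMC2, and the 3 libraries of a population mostly share a colour.

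Promoter sequence was read for 60 of the 70 genes from a RefSeq table of transcription starts (GRCm38.p6), as the 250 bases before the start. The 4 printed here belong to genes on which the comparisons below turn. Epha3 and Unc5b were highest in Intermediate, Efnb2 was high in both SMC populations, and Plxnd1 was highest in SMC2. Each of these starts is also the gene's start in the GENCODE annotation. Sequences run 5′ to 3′ on the gene's strand up to the base before the start, in lower case, with capitals marking a match on either strand to 1 of 5 short motifs: the MCAT box GGAATG, the GC box GGGCGG, the E-box CAGCTG, the AP-1 site TGANTCA and the CArG box.
Epha3, chr16:63864176-63864425, minus strand: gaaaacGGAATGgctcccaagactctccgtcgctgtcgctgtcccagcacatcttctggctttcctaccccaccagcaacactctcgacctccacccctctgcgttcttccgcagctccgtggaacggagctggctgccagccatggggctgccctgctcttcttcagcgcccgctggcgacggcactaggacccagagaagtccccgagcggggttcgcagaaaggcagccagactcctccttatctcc
Unc5b, chr10:60831582-60831831, minus strand: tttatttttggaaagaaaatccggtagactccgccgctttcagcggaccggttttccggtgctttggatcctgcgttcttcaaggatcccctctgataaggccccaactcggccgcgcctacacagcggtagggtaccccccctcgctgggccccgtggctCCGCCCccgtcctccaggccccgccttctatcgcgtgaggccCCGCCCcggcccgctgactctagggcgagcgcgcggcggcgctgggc
Efnb2, chr8:8661243-8661492, minus strand: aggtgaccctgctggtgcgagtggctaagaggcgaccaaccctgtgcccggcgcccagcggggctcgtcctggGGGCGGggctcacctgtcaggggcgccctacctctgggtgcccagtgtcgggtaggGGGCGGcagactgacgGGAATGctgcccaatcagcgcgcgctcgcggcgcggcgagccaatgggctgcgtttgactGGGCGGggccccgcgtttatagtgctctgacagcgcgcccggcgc
Plxnd1, chr6:115995006-115995255, minus strand: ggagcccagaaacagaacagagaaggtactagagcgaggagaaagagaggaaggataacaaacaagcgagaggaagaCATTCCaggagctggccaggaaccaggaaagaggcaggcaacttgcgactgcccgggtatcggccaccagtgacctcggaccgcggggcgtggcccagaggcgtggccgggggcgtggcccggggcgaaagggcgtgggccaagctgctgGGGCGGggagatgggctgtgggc
A match describes letters only. The window of Epha3 held 1 MCAT box and no GC box, and that of Unc5b held 2 GC boxes. The window of Efnb2 held 1 MCAT box and 3 GC boxes, and that of Plxnd1 held 1 of each. The GC box was present in 44 of the 60 guidance promoters (73.3%) against 32.7% of 32817 promoters of the same length, and the median GC content was 64.8% against 52.4%. The 60 were 1 start a gene, the one nearest the GENCODE gene start, while the 32817 were all distinct RefSeq starts. These shares were not adjusted for that difference in choice. The MCAT box, a site of the TEAD factors, was present in 6 (10%: Efnb2, Epha1, Epha2, Epha3, Plxnb1 and Plxnd1) against 12.6% of all. The CArG box, the site of serum response factor, was present in Robo1 only (1.67% against 1.47%), and the AP-1 site in Sema4c only (1.67% against 6.75%). The E-box was present in 11 of the 60 (18.3% against 13.0%).

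The first comparison sets the mean of the SMC populations against the mean of the stromal populations. Efnb2, Sema3f, Plxnb1, Unc5c, Unc5d and Sema5b were higher in smooth muscle cells, and Ephb2, Robo1, Nrp1 and Plxnc1 were lower. Of the 64 tested genes, 19 were called higher (29.7%, where 26.4% of all tested genes were) and 25 lower (39.1%, against 25.5%). The median log2 change of the guidance genes was -0.14, and that of all tested genes 0.02. The ligands split into 10 higher and 15 lower, and the receptors into 9 and 9.

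Among the ligands, Efnb2, the transmembrane ephrin that marks arterial cells, read 2.6, 5.8 and 7.52 CPM in Progenitor, 10.9, 11.7 and 13.5 in Intermediate, 70.8, 66.7 and 79.3 in SMC1 and 52.1, 37.7 and 33.7 in SMC2. All 6 SMC libraries lay above all 6 stromal ones, and the log2 change was 2.78 ± 0.19 (edgeR adjusted p = 2.36e-10). Its levels fell in the order SMC1, SMC2, Intermediate and Progenitor, and each step of that order was called. The step from SMC1 to SMC2 was lost without SMC2 replicate 2 or SMC2 replicate 3 (edgeR adjusted p = 0.0511 and 0.0657). Sema3f, a secreted semaphorin that acts through Nrp2, read 8.02, 15.3 and 18.4 CPM in Progenitor, 41.3, 38.6 and 35.7 in Intermediate, 308, 184 and 385 in SMC1 and 108, 96.1 and 89.4 in SMC2. The groups did not overlap here either, and the change was 2.87 ± 0.20 (edgeR adjusted p = 4.17e-10). Sema5b, a transmembrane semaphorin with thrombospondin repeats, was low throughout. It read 0.137, 0.467 and 1.2 CPM in Progenitor, 0.746, 0.44 and 1.02 in Intermediate, 1.88, 2.19 and 1.64 in SMC1 and 7.5, 5.93 and 6.24 in SMC2, a change of 2.43 ± 0.34 (edgeR adjusted p = 3.27e-06), with its highest libraries all in SMC2.

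Among the receptors, Plxnb1, the receptor for Sema4d, had the largest rise. It read 1.18, 3.87 and 3.85 CPM in Progenitor, 2.42, 2.39 and 4.53 in Intermediate, 29.8, 24.1 and 33.2 in SMC1 and 56.9, 39.9 and 38.5 in SMC2. SMC and stromal libraries were far apart, at 3.59 ± 0.24 on the log2 scale (edgeR adjusted p = 1.27e-09), while SMC2 and SMC1 were not called different (edgeR adjusted p = 0.104). That last difference was called, higher in SMC2, in a fit on the 6 SMC libraries alone (0.71), without Progenitor replicate 1 (0.62) and with no filter on low counts (0.56; edgeR adjusted p = 0.00456, 0.0234 and 0.0410). Unc5c, a repulsive netrin receptor, read 1.87, 3.07 and 1.52 CPM in Progenitor, 1.99, 2.95 and 2.17 in Intermediate, 36.9, 43.7 and 40.5 in SMC1 and 4.003, 10.2 and 8.04 in SMC2. SMC1 stood far above the rest and SMC2 stood between SMC1 and the stromal libraries. The change was 2.94 ± 0.21 (edgeR adjusted p = 4.26e-10). Its relative Unc5d read 0.365, 0.4001 and 0.695 CPM in Progenitor, 0.249, 0.754 and 0.894 in Intermediate, 3.46, 5.69 and 6.27 in SMC1 and 2.81, 2.07 and 4.02 in SMC2, a change of 2.81 ± 0.32 (edgeR adjusted p = 1.69e-07). The kit does not mark strand, so the 2.68% of Plxnb1 exon bases shared with Gm7628 and the 0.617% of Unc5c exon bases shared with Gm15688 cannot be assigned to one gene.

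The receptors that were lower in smooth muscle cells were led by Ephb2, a receptor kinase for B-type ephrins. Ephb2 read 10.7, 20.3 and 27.1 CPM in Progenitor, 27.8, 36.2 and 35.5 in Intermediate, 2.04, 1.73 and 1.35 in SMC1 and 0.414, 1.04 and 2.76 in SMC2. No SMC library came near a stromal one, and the log2 change was -4.05 ± 0.32 (edgeR adjusted p = 3.09e-08). Robo1, a Slit receptor, read 7.43, 8.27 and 12.9 CPM in Progenitor, 9.26, 14.4 and 13.7 in Intermediate, 1.63, 1.73 and 2.34 in SMC1 and 0.69, 1.48 and 2.7 in SMC2, a change of -2.65 ± 0.26 (edgeR adjusted p = 2.73e-08). Nrp1, the co-receptor of Sema3a and of vascular endothelial growth factor, read 339.7, 357 and 399.8 CPM in Progenitor, 526, 446 and 465 in Intermediate, 96.4, 78.5 and 85.5 in SMC1 and 89.5, 97.5 and 95.6 in SMC2. It was abundant in every library and higher in all 6 stromal ones, with a change of -2.21 ± 0.12 (edgeR adjusted p = 1.24e-12). Plxnc1, the receptor for Sema7a, read 5.38, 6.001 and 7.07 CPM in Progenitor, 8.14, 6.78 and 9.45 in Intermediate, 1.78, 2.75 and 1.82 in SMC1 and 1.79, 2.27 and 2.88 in SMC2, a change of -1.67 ± 0.20 (edgeR adjusted p = 3.42e-07). For none of these 4 receptors did the test call a difference between Intermediate and Progenitor or between SMC2 and SMC1. With the replicate number as a block, Ephb2 was called higher in Intermediate (log2 change 0.86, edgeR adjusted p = 0.0480). It was also called higher there with no filter on low counts (0.74, edgeR adjusted p = 0.0118).

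**Figure D2:**
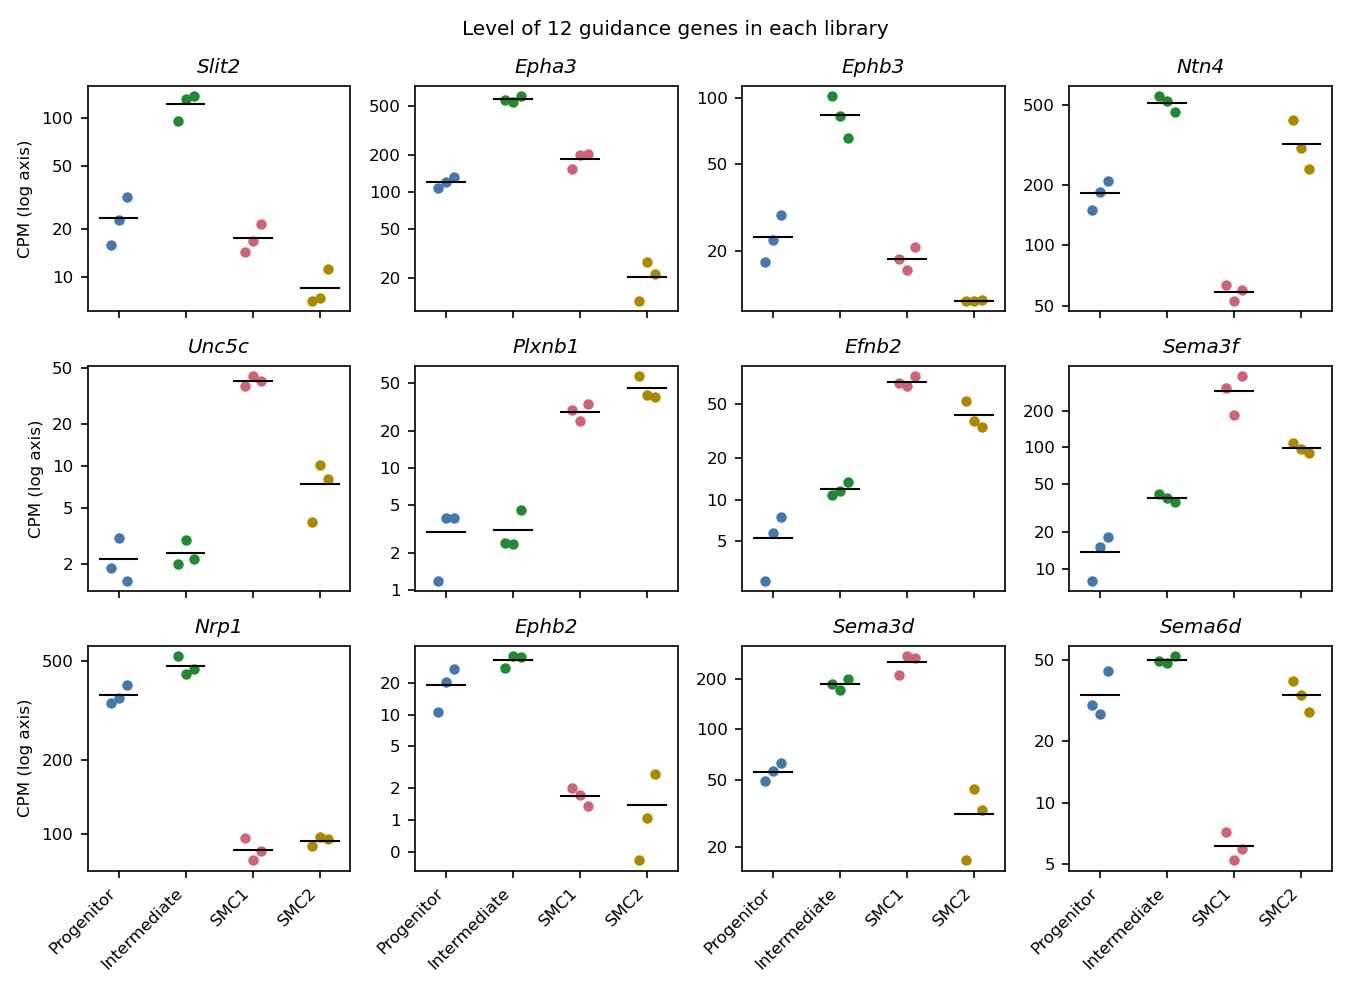
Level of 12 guidance genes in CPM (log axis, different in each panel), 1 point a library and a bar at the mean of the 3 libraries of each population. Efnb2, Sema3f, Plxnb1 and Unc5c were higher in both SMC populations than in the stromal ones, Nrp1 and Ephb2 were lower, and Slit2, Epha3 and Ephb3 were highest in Intermediate.

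The second comparison asks how the Intermediate population differs from Progenitor. Slit2, Epha3, Plxna4, Ephb3, Unc5b and Sema3d rose most in Intermediate, and Sema3e, Sema6a, Sema3a, Plxnd1 and Efnb1 fell. Of 64 tested genes, 19 were called higher (29.7%, where 12.7% of all tested genes were) and 5 lower (7.81%, against 9.46%). The median log2 change was 0.30 for the guidance genes and 0.08 for all tested genes. The genes called higher were 10 ligands and 9 receptors, and those called lower were 4 ligands and 1 receptor.

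Slit2, a secreted ligand of Robo receptors, read 16, 22.8 and 31.6 CPM in Progenitor, 95.6, 132 and 136 in Intermediate, 14.4, 17 and 21.7 in SMC1 and 7.13, 7.41 and 11.2 in SMC2. Every Intermediate library lay above every other library. The log2 change from Progenitor was 2.37 ± 0.24 (edgeR adjusted p = 1.09e-06), and Progenitor and SMC1, next in the order, were not called different (adjusted p = 0.168 in edgeR). Sema3d, a secreted semaphorin, read 49.5, 56.4 and 63 CPM in Progenitor, 187, 171 and 198 in Intermediate, 210.4, 273 and 265 in SMC1 and 16.8, 44.3 and 33.4 in SMC2. It was high in Intermediate and in SMC1, which were not called different (edgeR adjusted p = 0.159), and rose from Progenitor to Intermediate by 1.72 ± 0.24 (edgeR adjusted p = 4.53e-05). Ntn4, a netrin that binds laminins of basement membranes, read 149.5, 185 and 209 CPM in Progenitor, 552, 525 and 460.1 in Intermediate, 63, 52.8 and 60.1 in SMC1 and 419, 303 and 240.4 in SMC2. It was highest in Intermediate, next in SMC2, and lowest in SMC1, and each step of the order was called. The change from Progenitor was 1.501 ± 0.20 (edgeR adjusted p = 1.61e-05).

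Among the receptors, Epha3, a receptor kinase that binds ephrin-A5, read 107, 119 and 133 CPM in Progenitor, 555, 534 and 596 in Intermediate, 154, 198 and 201 in SMC1 and 13.1, 27 and 21.5 in SMC2. The Intermediate libraries lay between 534 and 596 CPM and no other library passed 201. The rise from Progenitor was 2.23 ± 0.21 (edgeR adjusted p = 3.92e-07), and each of the 4 populations differed from its neighbour in the order. Ephb3, a receptor kinase for B-type ephrins, read 17.7, 22.3 and 29.2 CPM in Progenitor, 102, 83.3 and 66 in Intermediate, 18.3, 16.3 and 20.7 in SMC1 and 11.8, 11.8 and 11.9 in SMC2. It rose by 1.86 ± 0.19 (edgeR adjusted p = 8.89e-07). Plxna4, the plexin that joins Nrp1 in Sema3a signalling, read 10.1, 15.9 and 16.9 CPM in Progenitor, 54.1, 52.9 and 58.8 in Intermediate, 103, 87.4 and 120.0 in SMC1 and 10.5, 21.9 and 16.8 in SMC2. It rose from Progenitor to Intermediate by 1.96 ± 0.23 (edgeR adjusted p = 5.83e-06) and was higher still in SMC1. Unc5b, a netrin receptor also found on endothelial tip cells, read 5.38, 11.3 and 10.7 CPM in Progenitor, 33.4, 31.6 and 26.4 in Intermediate, 10.7, 8.95 and 12.2 in SMC1 and 5.57, 4.94 and 4.38 in SMC2, a rise of 1.75 ± 0.23 (edgeR adjusted p = 1.43e-05) that left Intermediate above all other libraries.

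The 5 genes that were lower in Intermediate include semaphorins of class 3. Sema3e, which binds Plxnd1 without a neuropilin, read 15.7, 12.9 and 20.2 CPM in Progenitor, 4.47, 2.07 and 5.11 in Intermediate, 54.2, 64.8 and 79.5 in SMC1 and 5.84, 12.3 and 12.8 in SMC2. Intermediate was its lowest population, with a change of -2.06 ± 0.32 (edgeR adjusted p = 1.93e-04). Its receptor Plxnd1 read 10.8, 15.6 and 24.8 CPM in Progenitor, 6.15, 10.3 and 7.47 in Intermediate, 15.9, 9.28 and 15.6 in SMC1 and 49.8, 30.2 and 30.7 in SMC2, and was also lowest in Intermediate, with a change of -1.09 ± 0.31 (edgeR adjusted p = 0.0175). Sema3a, the founding repulsive semaphorin, read 28.7, 17.3 and 31.3 CPM in Progenitor, 8.89, 11.6 and 14.9 in Intermediate, 81.3, 133 and 115 in SMC1 and 6.9, 23.2 and 15.5 in SMC2, a change of -1.13 ± 0.36 (edgeR adjusted p = 0.0339). Sema6a, a transmembrane ligand of A plexins, read 16.1, 11.6 and 18 CPM in Progenitor, 7.33, 6.15 and 4.28 in Intermediate, 7.43, 4.29 and 5.39 in SMC1 and 2.16, 4.001 and 4.86 in SMC2. It was highest in Progenitor, and its change to Intermediate was -1.36 ± 0.29 (edgeR adjusted p = 0.00177). Efnb1, a transmembrane ligand of EphB receptors, read 26.9, 28.9 and 30.8 CPM in Progenitor, 24.5, 15.4 and 16.4 in Intermediate, 13.5, 9.75 and 10.8 in SMC1 and 17.7, 15.7 and 14 in SMC2, a change of -0.62 ± 0.19 (edgeR adjusted p = 0.0241). The calls of Sema3a, Plxnd1 and Efnb1 each depended on single libraries. Leaving out Progenitor replicate 3 ended all 3 calls, and leaving out each Intermediate library in turn ended 2 of the 3. With the replicate number as a block, Robo2 was also called lower (log2 change -2.12, edgeR adjusted p = 0.0207).

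Some libraries and markers moved with this comparison. Of the 19 genes called higher, 17 had their lowest Progenitor value in replicate 1 and 15 their highest in replicate 3. Without Progenitor replicate 1, 14 guidance genes were called higher, and the changes of Slit2, Epha3 and Ephb3 were 2.17, 2.17 and 1.72. Of the 9 mesothelial markers, 8 were called higher in Intermediate and 1 lower. The sum of the 9 was 178 to 431 CPM there, highest in replicate 3, against 42.8 to 69.7 in Progenitor, 37.1 to 71.0 in SMC1 and 15.6 to 39.8 in SMC2. None of the mesothelial markers was at 0 in all libraries. The 7 pericyte markers summed to 553 to 572 CPM in Intermediate and 172 to 274 in Progenitor, with 2 called higher and 1 lower. Of the 6 adipocyte markers, 4 were called lower in Intermediate, with sums of 54.1 to 76.3 CPM there and 136 to 171 in Progenitor. Endothelial markers summed to 101 to 159 CPM in Intermediate and 180.0 to 249.5 in Progenitor, with 1 of 10 called in each direction. The part of these cells in the guidance changes was not tested. Without Intermediate replicate 3, the changes of Slit2, Epha3 and Ephb3 were 2.30, 2.21 and 2.03.

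The next comparison, the third, sets the 2 smooth muscle populations against each other. All 7 class 3 semaphorins were lower in SMC2 than in SMC1, with Epha3, Ephb6, Efna5 and Plxna4, while Sema6d, Ntn4, Efna2, Sema4b, Epha2 and Sema5b were higher. Of 64 tested genes, 13 were called higher in SMC2 (20.3%, where 16.5% of all tested genes were) and 25 lower (39.1%, against 18.1%). The median log2 change was -0.40 for the guidance genes, and the median size of a change was 1.17 against 0.54 for all tested genes. Ligands were split into 10 higher and 13 lower, and receptors into 3 higher and 12 lower.

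The class 3 semaphorins summed to 199 CPM per kb in SMC1 and 42.3 in SMC2, with 90.8 in Progenitor and 98.5 in Intermediate. Sema3c, a secreted semaphorin that binds both neuropilins, read 366, 284 and 436 CPM in Progenitor, 224, 228 and 268 in Intermediate, 403, 522 and 472 in SMC1 and 32.1, 95.8 and 66.7 in SMC2. It was the most abundant of the class per length, and its change from SMC1 to SMC2 was -2.84 ± 0.29 (edgeR adjusted p = 4.88e-07). Sema3d changed by -2.99 ± 0.26 (edgeR adjusted p = 3.09e-08) and Sema3a by -2.86 ± 0.36 (edgeR adjusted p = 1.76e-05). Sema3e changed by -2.68 ± 0.30, Sema3b by -1.99 ± 0.27, Sema3f by -1.58 ± 0.26 and Sema3g by -1.44 ± 0.45 (edgeR adjusted p from 2.23e-06 for Sema3e to 0.0187 for Sema3g). Sema3b stood at 127 ± 39 in Progenitor and 164 ± 17.7 in Intermediate, and 153 ± 22.2 in SMC1 and 38.5 ± 14.3 in SMC2 CPM. Sema3g, the lowest of the class, stood at 3.11 ± 1.73 in Progenitor and 1.62 ± 0.855 in Intermediate, and 6.11 ± 1.75 in SMC1 and 2.26 ± 0.949 in SMC2 CPM, and its call was lost without SMC1 replicate 1 or SMC2 replicate 1 (edgeR adjusted p = 0.0662 and 0.0581). Within SMC2, all of the class but Sema3f were lowest in replicate 1.

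Efna5, a ligand of EphA receptors held to the membrane by a lipid anchor, read 2.92, 7.27 and 4.74 CPM in Progenitor, 10.7, 10.05 and 10.5 in Intermediate, 28.9, 27.4 and 40.8 in SMC1 and 2.53, 5.43 and 4.68 in SMC2. SMC1 was far above all other libraries, and the change to SMC2 was -2.94 ± 0.30 (edgeR adjusted p = 2.40e-07). Epha3 was lower in SMC2 than in SMC1 too, with a log2 change of -3.17 ± 0.23 (edgeR adjusted p = 1.35e-09). Ephb6, an Eph receptor without kinase activity, read 4.15, 6.87 and 9.35 CPM in Progenitor, 18.1, 23.2 and 24.7 in Intermediate, 41.1, 30.8 and 39.5 in SMC1 and 2.9, 6.87 and 5.46 in SMC2. Its SMC2 libraries overlapped those of Progenitor, and its change from SMC1 was -2.87 ± 0.29 (edgeR adjusted p = 3.86e-07). Plxna4 changed by -2.66 ± 0.24 and Unc5c by -2.45 ± 0.27 (edgeR adjusted p = 4.05e-08 and 7.05e-07).

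Of the 13 genes higher in SMC2, 10 were ligands. Sema6d, a transmembrane ligand of Plxna1, read 30.2, 27.2 and 44 CPM in Progenitor, 49.2, 48.2 and 52.4 in Intermediate, 7.23, 5.22 and 5.92 in SMC1 and 39.3, 33.7 and 28 in SMC2. SMC1 was low, and all libraries of the other 3 populations lay between 27.2 and 52.4 CPM, with a change from SMC1 to SMC2 of 2.46 ± 0.20 (edgeR adjusted p = 1.06e-08). Ntn4 rose by nearly the same amount, 2.45 ± 0.21 (edgeR adjusted p = 1.32e-08). Efna2, an ephrin with a lipid anchor, read 10.6, 12.3 and 11 CPM in Progenitor, 14.2, 11.7 and 12.3 in Intermediate, 3.16, 2.38 and 2.11 in SMC1 and 11.4, 11.5 and 10.3 in SMC2. It too was low in SMC1 alone, and changed by 2.12 ± 0.21 (edgeR adjusted p = 1.06e-07). Sema4b, a transmembrane semaphorin, read 4.79, 4.47 and 5.94 CPM in Progenitor, 2.61, 3.45 and 4.41 in Intermediate, 2.09, 2.05 and 3.22 in SMC1 and 7.78, 8.4 and 9.42 in SMC2, a change of 1.80 ± 0.27 (edgeR adjusted p = 2.39e-05). Epha2, a receptor of ephrin-A1, read 3.78, 4.33 and 6.44 CPM in Progenitor, 5.41, 6.84 and 13.2 in Intermediate, 4.17, 2.7 and 1.99 in SMC1 and 10.4, 9.68 and 10.4 in SMC2, a change of 1.78 ± 0.33 (edgeR adjusted p = 2.24e-04). Its SMC2 libraries lay close together, whereas those of Intermediate were spread more widely. Sema5b changed by 1.78 ± 0.42 and Plxnd1 by 1.44 ± 0.30 (edgeR adjusted p = 0.00217 and 0.00102).

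Markers of other cells differed between the SMC populations too. Of the 8 Schwann cell markers, 7 were called higher in SMC2, and their sum was 141 to 307 CPM there, 36.9 to 58.7 in SMC1 and 22.7 to 37.6 in the stromal libraries. Sox10 stood at 3.85 ± 2.29 CPM in SMC2. The 6 adipocyte markers were all called higher in SMC2, with sums of 1885 to 2287 CPM there and no more than 301 CPM elsewhere. Of the 10 endothelial markers, 6 were called lower in SMC2, with sums of 342 to 456 CPM in SMC1 and 60.4 to 152 in SMC2. Fibroblast markers summed to 770.03 to 1322 CPM in SMC1 and 181 to 385 in SMC2, with 3 of 8 called lower in SMC2. Pericyte markers summed to 3091 to 3789 CPM in SMC1 and 1676 to 2210.3 in SMC2, with 4 of 7 called lower and 2 higher, and 5 of the 8 smooth muscle markers were called lower and 1 higher. Leukocyte markers summed to 665 CPM in SMC1 replicate 1 and to 101 to 254 CPM in the other 11 libraries. The part of these cells in the guidance differences was not tested. The Schwann cell sum was highest in SMC2 replicate 3, in which 5 of the 13 guidance genes higher in SMC2 had their lowest SMC2 value and 3 their highest. Of the 25 guidance genes lower in SMC2, 14 had their lowest SMC2 value in replicate 1 and 7 their highest. In that library the fibroblast and endothelial sums were the lowest of SMC2, and the pericyte sum was the highest. Without SMC1 replicate 1, 15 guidance genes were called higher in SMC2 and 23 lower.

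The comparison of Intermediate with Progenitor and that of SMC2 with SMC1 share no library. In both, 22 of the 64 tested guidance genes were called, where 1964 of all 19016 tested genes were. The largest group, 16 genes (25%, where 5.48% of all tested genes did so), was higher in Intermediate than in Progenitor and lower in SMC2 than in SMC1: Slit2, Epha3, Epha7, Ephb3, Ephb6, Unc5b, Ntn1, Sema3d, Sema3f, Sema6c, Efna5, Efnb2, Plxna2, Plxna3, Plxna4 and Plxnb2. Efna1, Ntn4 and Sema6d were higher in both (4.69%, against 1.55%), and Sema3a and Sema3e were lower in both (3.13%, against 0.868%). Plxnd1 alone was lower in Intermediate and higher in SMC2 (1.56%, against 2.43%). The calls of Sema6c, Sema6d and Plxnb2 between Intermediate and Progenitor were weak, and ended with median-of-ratios scaling in place of TMM (edgeR adjusted p = 0.0779, 0.0588 and 0.0588). These calls also ended with upper-quartile factors, in the fit on the 6 libraries of those groups, and in most fits with 1 library left out. Those of Sema6c and Sema6d ended in the DESeq2 test and with no filter as well. Efna5 lost its call between Intermediate and Progenitor without Progenitor replicate 1, and Plxna3 without Progenitor replicate 1 or Intermediate replicate 2. Between SMC2 and SMC1, Efnb2 lost its call without SMC2 replicate 2 or SMC2 replicate 3, and Ephb3 without SMC1 replicate 3 (adjusted p = 0.0556 in edgeR).

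**Figure D3:**
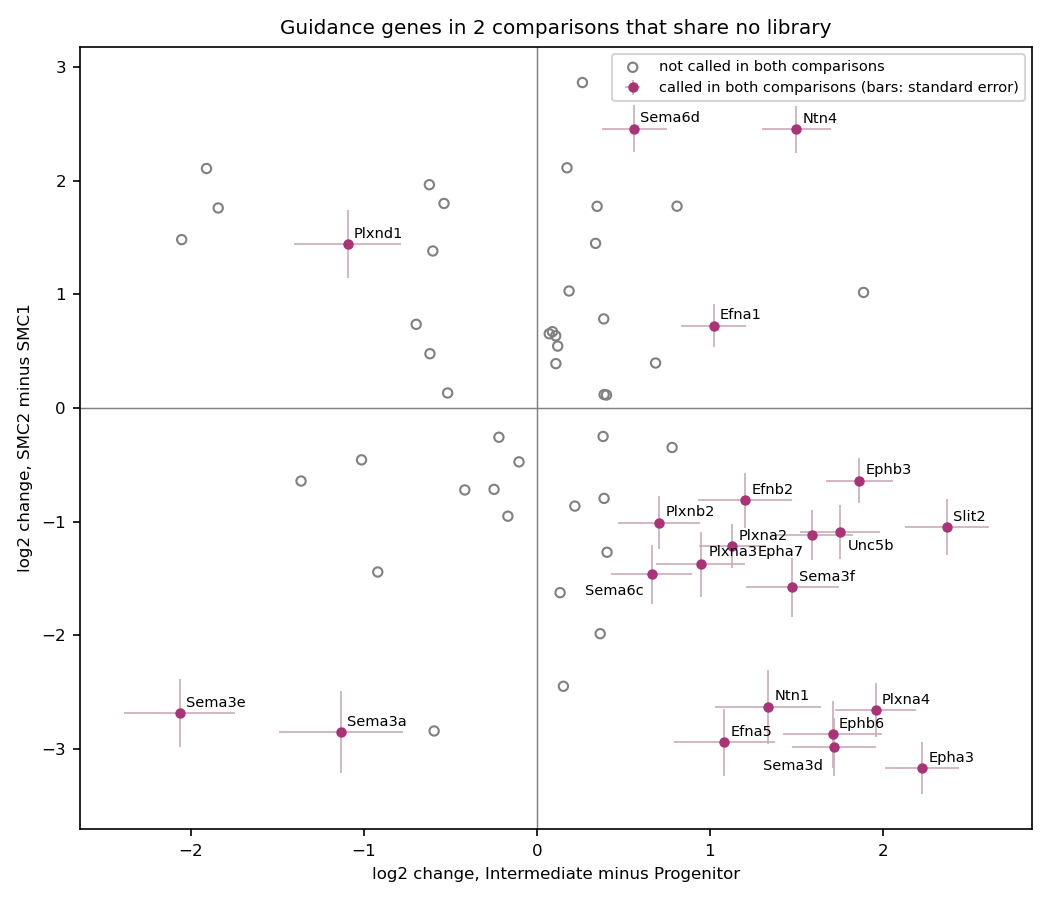
Log2 change between Intermediate and Progenitor (horizontal axis) and between SMC2 and SMC1 (vertical axis) for 64 guidance genes, with filled points and standard error bars for the 22 genes called in both. The lower right quadrant, higher in Intermediate and lower in SMC2, holds 16 of the 22, among them Slit2, Epha3 and Sema3d, and only Plxnd1 is called in the upper left.

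The remaining expressed genes, taken by role, complete the picture. Ntn1, the founding netrin, stood at 78.2 ± 41 in Progenitor and 197 ± 27.6 in Intermediate, and 109 ± 10.4 in SMC1 and 17.6 ± 2.13 in SMC2 CPM, called higher in Intermediate than in Progenitor (log2 change 1.34 ± 0.31) and lower in SMC2 than in SMC1 (-2.63 ± 0.32, edgeR adjusted p = 0.00507 and 8.19e-06). Between the SMC populations Ntn1 and Ntn4 thus changed in opposite directions. The netrins together summed to 61.0, 168, 33.1 and 88.7 CPM per kb in Progenitor, Intermediate, SMC1 and SMC2. Slit3, the most abundant Slit, read 247, 287 and 446 CPM in Progenitor, 343, 297 and 273 in Intermediate, 226, 162 and 284 in SMC1 and 199.8, 142 and 141 in SMC2. It was lower in the SMC populations by -0.73 ± 0.16 (edgeR adjusted p = 8.73e-04), and neither Intermediate and Progenitor nor SMC2 and SMC1 were called different. Efna1, the ligand of Epha2, read 18.5, 19.2 and 21.4 CPM in Progenitor, 45.8, 33.5 and 40.7 in Intermediate, 19.2, 11.8 and 13.7 in SMC1 and 25.4, 27.7 and 20.9 in SMC2. Intermediate was highest and SMC1 lowest, and both the change from Progenitor to Intermediate and that from SMC1 to SMC2 were called.

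Of the other semaphorins, Sema5a, a transmembrane protein with thrombospondin repeats, read 42.2, 57.7 and 62.2 CPM in Progenitor, 50.4, 62.9 and 64.5 in Intermediate, 109, 121 and 154 in SMC1 and 42.1, 43.1 and 39.1 in SMC2. It was higher in SMC1 than elsewhere, and changed by -1.63 ± 0.18 from SMC1 to SMC2 (edgeR adjusted p = 4.34e-07). Sema4c, a ligand of Plxnb2, read 21.4, 29.6 and 33.7 CPM in Progenitor, 33.9, 40.001 and 36.7 in Intermediate, 16.2, 12.3 and 14.6 in SMC1 and 32, 20.6 and 21.6 in SMC2, with the lowest values in SMC1 (7.27% of its exon bases are shared with another gene). Sema4a stood at 12.4 ± 2.46 in Progenitor and 13.2 ± 2.61 in Intermediate, and 9.17 ± 0.403 in SMC1 and 14.6 ± 1.28 in SMC2 CPM, Sema6b at 7.29 ± 2.28 in Progenitor and 3.6 ± 1.54 in Intermediate, and 2.6 ± 1.84 in SMC1 and 1.91 ± 0.722 in SMC2 CPM and Sema6c at 10.6 ± 2.37 in Progenitor and 16.8 ± 3.08 in Intermediate, and 7.01 ± 2.18 in SMC1 and 2.53 ± 0.179 in SMC2 CPM. All 4 class 6 semaphorins were called lower in the SMC populations than in the stromal ones. Sema7a, a semaphorin held to the membrane by a lipid anchor, read 0.0911, 1.07 and 0.568 CPM in Progenitor, 0.559, 0.502 and 1.15 in Intermediate, 1.48, 0.746 and 0.996 in SMC1 and 0.322, 0.247 and 0.78 in SMC2, and none of the 3 comparisons called it.

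Of the plexins, Plxna1 read 23.5, 33.1 and 41.6 CPM in Progenitor, 41.5, 35.5 and 28.7 in Intermediate, 32.5, 22.1 and 36.3 in SMC1 and 47.1, 37.5 and 34.4 in SMC2. All its groups overlapped and no test called it, including the test for any difference (10.7% of its exon bases are shared with Gm26811). Plxnb2, the most abundant plexin per length, read 83.9, 96.9 and 172 CPM in Progenitor, 167, 199 and 209 in Intermediate, 183, 132 and 205 in SMC1 and 104, 79.9 and 74.5 in SMC2. It was lower in SMC2 than in SMC1 by -1.01 ± 0.24 (edgeR adjusted p = 0.00227). Plxna2 stood at 25.1 ± 4.11 in Progenitor and 54.9 ± 13.5 in Intermediate, and 67.4 ± 4.91 in SMC1 and 29 ± 4.95 in SMC2 CPM and Plxna3 at 10.8 ± 3.81 in Progenitor and 20.7 ± 4.73 in Intermediate, and 6.24 ± 1.5 in SMC1 and 2.38 ± 0.565 in SMC2 CPM, so these A plexins had their highest means in SMC1 and Intermediate. For Plxna2, SMC1 was not called above Intermediate (edgeR adjusted p = 0.220). Nrp2, the neuropilin of Sema3f, stood at 14.8 ± 3.52 in Progenitor and 16.1 ± 2.68 in Intermediate, and 9.12 ± 3.38 in SMC1 and 13.3 ± 0.796 in SMC2 CPM, well below Nrp1 per length (1.36 against 48.9 CPM per kb in Intermediate). Both neuropilins were called lower in the SMC populations, Nrp2 by -0.49 ± 0.16 (edgeR adjusted p = 0.0171), a call that was lost without Progenitor replicate 3 (adjusted p = 0.0631 in edgeR).

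Of the Eph receptors, Ephb4 read 33.5, 40.9 and 40.4 CPM in Progenitor, 43.5, 48.5 and 41.6 in Intermediate, 50.1, 36 and 54.6 in SMC1 and 29.3, 22.6 and 25.3 in SMC2. It was expressed at nearly the same level in Progenitor, Intermediate and SMC1, whose neighbours in the order were not called different, and lower in SMC2 (-0.86 ± 0.17 against SMC1, edgeR adjusted p = 5.18e-04). Epha4 stood at 16.8 ± 0.715 in Progenitor and 21.3 ± 2.64 in Intermediate, and 10.4 ± 0.896 in SMC1 and 28.3 ± 7.16 in SMC2 CPM, highest in SMC2, whereas Epha1 at 11.6 ± 5.35 in Progenitor and 9.73 ± 2.72 in Intermediate, and 29.8 ± 0.529 in SMC1 and 18.1 ± 3.21 in SMC2 CPM and Epha7 at 3.34 ± 0.537 in Progenitor and 10.2 ± 2.31 in Intermediate, and 16.2 ± 2.8 in SMC1 and 7.47 ± 1.31 in SMC2 CPM were highest in SMC1. Of the Epha1 exon bases, 6.01% are shared with Zyx. The Epha1 call between SMC2 and SMC1 (edgeR adjusted p = 0.0347) was lost with upper-quartile factors. It was also lost without each SMC1 library in turn, SMC2 replicate 2 or SMC2 replicate 3. Together the EphA receptors summed to 20.4, 72.7, 32.4 and 13.6 CPM per kb in Progenitor, Intermediate, SMC1 and SMC2. Epha3 was the largest part of the sum in Progenitor, Intermediate and SMC1, but not in SMC2, where Epha1 and Epha4 were above it. The EphB receptors summed to 15.3, 31.1, 23.2 and 9.19 CPM per kb in the same order. Robo4, a Robo of endothelial cells, read 1.37, 1.8 and 1.45 CPM in Progenitor, 0.621, 2.14 and 1.34 in Intermediate, 7.79, 1.91 and 3.69 in SMC1 and 1.61, 1.93 and 3.42 in SMC2. Its highest value was in SMC1 replicate 1, and its call between SMC and stromal populations was lost without that library (adjusted p = 0.0506 in edgeR). Unc50, which is not a guidance receptor, stood at 145 ± 31.3 in Progenitor and 125 ± 12.1 in Intermediate, and 112 ± 14.6 in SMC1 and 93.6 ± 4.72 in SMC2 CPM.

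**Figure D4:**
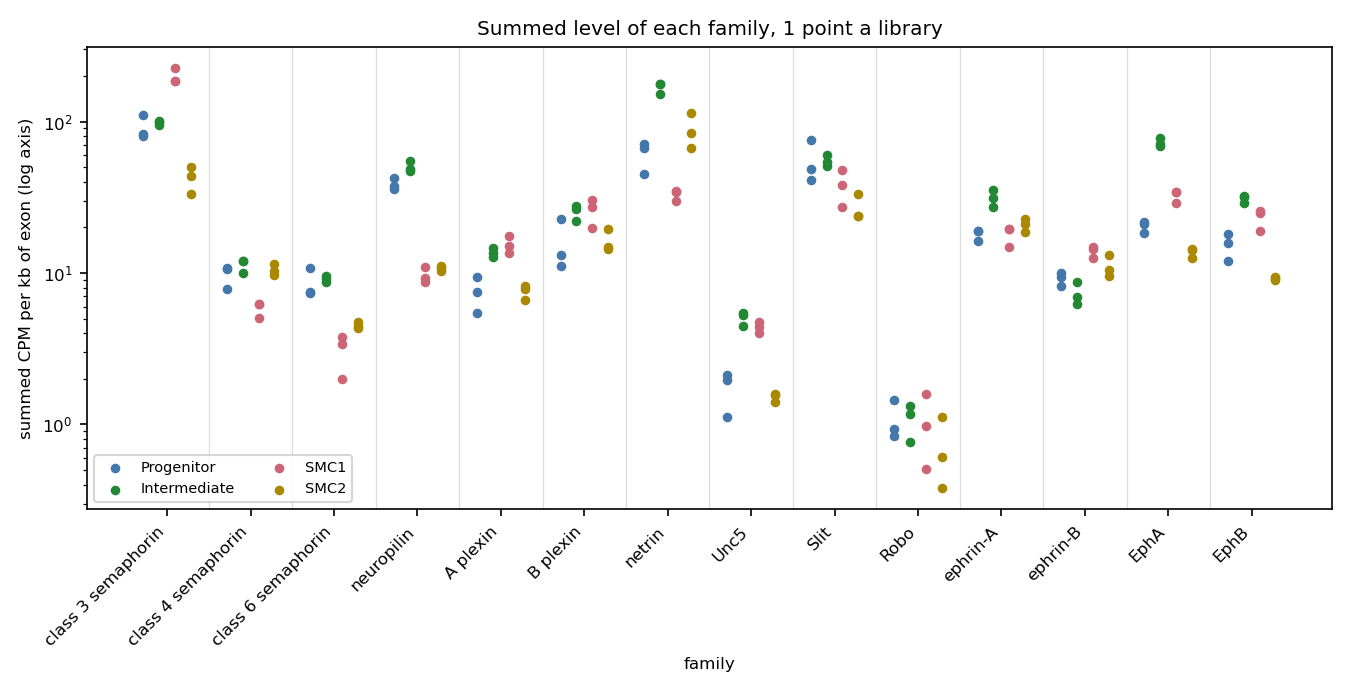
Summed level of 14 families in CPM per kb of exon (log axis), 1 point a library, coloured by population. Class 3 semaphorins were highest in SMC1 and lowest in SMC2, netrins and EphA receptors were highest in Intermediate, and neuropilins were lower in both SMC populations than in the stromal ones.

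The order of a gene's 4 levels also draws on the comparisons across the stromal and SMC populations, which share libraries with those above. Between SMC1 and Progenitor 37 of 64 guidance genes were called (57.8%, where 48.3% of all tested genes were), and between SMC2 and Progenitor also 37 (57.8%, against 44.8%). Between SMC1 and Intermediate 40 were called (62.5%, against 41.6%), and between SMC2 and Intermediate 41 (64.1%, against 44.6%).

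Known ligand and receptor pairs were set side by side as levels, with no test. Of 22 pairs, 5 had their highest means in the same population: Slit2 with Robo1 and Ntn1 with Unc5b in Intermediate, Efnb2 with Ephb4 and Efna5 with Epha7 in SMC1, and Sema4d with Plxnb1 in SMC2. Among these, the maxima of Robo1, Ephb4, Sema4d and Plxnb1 were not called above the next population (edgeR adjusted p = 0.426, 0.770, 0.810 and 0.104). For the pairs that hold them, a shared maximum is thus not settled. In the other 17 pairs the highest means lay in different populations. Sema3a was highest in SMC1 and Nrp1 in Intermediate, and Sema3e was highest in SMC1 and its receptor Plxnd1 in SMC2. Efna5 was highest in SMC1, whereas Epha3 was highest in Intermediate and Epha4 in SMC2. The maxima of Nrp1 and Epha4 were not called above the next population either (edgeR adjusted p = 0.0836 and 0.0721). Nor were those of Sema3c, Slit3, Sema7a, Nrp2, Plxna1, Plxna2, Plxnb3, Plxnc1, Robo2, Ephb2 and Epha2. For these the edgeR adjusted p ran from 0.101 for Plxnb3 to 0.795 for Slit3, and Dcc was not tested. For several of the 17 pairs, a split between populations is thus not settled either. Ntn1 reached 197 ± 27.6 CPM in Intermediate, or 31.4 CPM per kb. Dcc stood there at 0.212 ± 0.266 CPM (0.0161 CPM per kb), on 0, 2 and 8 counts. Unc5b stood at 30.5 ± 3.64 CPM, and the 4 Unc5 receptors together at 5.09 CPM per kb.

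Other genes of the same pathways were followed through lists that the name pattern does not cover. Of 19 further guidance ligands, receptors and co-receptors, 7 were called higher and 9 lower in the SMC populations (36.8% and 47.4%, where 26.4% and 25.5% of all tested genes were). In Intermediate 3 were higher and 5 lower than in Progenitor (15.8% and 26.3%, against 12.7% and 9.46%), and in SMC2 6 were higher and 5 lower than in SMC1 (31.6% and 26.3%, against 16.5% and 18.1%). Flrt2, a ligand of Unc5 receptors, was highest in the stromal populations, and went from 193 ± 17.3 CPM in Progenitor and 269 ± 30.5 in Intermediate to 25.1 ± 0.993 in SMC1 and 6.9 ± 2.77 in SMC2 (-4.11 ± 0.17, edgeR adjusted p = 2.30e-14). Neo1, the netrin and RGM receptor related to Dcc, was instead highest in SMC1, at 249 ± 58.7 CPM against 53.2 ± 16.2 in Progenitor, 90.2 ± 11.7 in Intermediate and 109 ± 17.5 in SMC2. Ntng1, a netrin-G protein anchored in the membrane, rose from 0.336 ± 0.0939 CPM in Progenitor to 3.46 ± 0.879 in Intermediate (3.38 ± 0.39, edgeR adjusted p = 3.22e-06). The adhesion molecule Chl1 did the opposite, from 11.1 ± 7.22 to 1.36 ± 0.279 CPM (-3.02 ± 0.55, edgeR adjusted p = 0.00119).

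Of 50 genes for signalling inside the cell, 49 were tested. In the SMC populations 21 of these were called higher and 18 lower (42.9% and 36.7%, where 26.4% and 25.5% of all tested genes were). In Intermediate 13 were called higher and 4 lower (26.5% and 8.16%, against 12.7% and 9.46%). In SMC2 8 were called higher, a share near that of all genes (16.3% against 16.5%), and 21 lower (42.9% against 18.1%). Mical2, an enzyme of the family that takes actin filaments apart downstream of semaphorins, rose from 30.1 ± 6.34 CPM in Progenitor to 199 ± 33.3 in Intermediate (2.72 ± 0.20, edgeR adjusted p = 1.38e-08). Enah, an actin regulator that acts below Robo and netrin receptors, was higher in the SMC populations by 3.47 ± 0.16 (edgeR adjusted p = 1.96e-13). Dpysl5, of the collapsin response mediator family that carries Sema3a signals, changed by -3.18 ± 0.39 from SMC1 to SMC2, and its relative Dpysl3 by -1.59 ± 0.18 (edgeR adjusted p = 1.58e-06 and 8.40e-07). These 2 genes thus moved in the same direction as the class 3 semaphorins in that comparison, as did the other genes among the 21 called lower. The list also holds Dpysl2, Dpysl4 and Crmp1 of the same family, which are not described here.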

How the data were processed

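The authors deposited raw read counts per gene and library as whole numbers, normalized counts (a signal equal to the raw count divided by 1 factor per library, within a relative spread of 1.08e-09) and regularized log2 values, which lay within 0.0154 of the log2 normalized counts in the library medians of 1668 abundant genes. Alignment with STAR 2.5.2a, the package DESeq2 1.26.0 and mm10 appear in the submitters' processing notes. No read counter or annotation release is given in the sources used here. The labels' protocols name a SMART-Seq kit with poly(A) selection, which keeps no strand, so overlapping genes share reads and counts are not independent molecules.

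The test on raw counts used edgeR 4.0.16 with limma 3.58.1 in R 4.3.3: filterByExpr kept 19016 genes, TMM scaled the libraries, and a quasi-likelihood model with robust dispersion fitted 1 mean per group over 12 libraries (8 residual degrees of freedom). The 3 comparisons are orthogonal, two-sided, and called at an adjusted p of 0.05. The standard error is the log2 change divided by the square root of F. The code was tested on simulated data. CPM use TMM-scaled library sizes, and lengths are GENCODE M21 exon bases.

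The genes given in every library are the 6 highest and 6 lowest log2 changes of each comparison among called genes with at least 4 CPM in the higher group and no overlap between libraries, plus the most abundant gene of each family per length. For genes listed by their change, the lack of overlap was thus a condition of the choice and no further result. Members and lists were chosen with earlier results of these data known. Replicates differed beyond sampling noise (chi-square per degree of freedom of 9.38 to 54.5). Deviations of same-numbered libraries correlated at 0.17, 0.19 and 0.17 between Progenitor and Intermediate, all above 0.1. In no other pair of groups were all correlations above 0.1, with a range of -0.02 to 0.35. The main fit included no pairing, so the changes, standard errors and p-values given are unpaired unless the replicate block is named. Alternatives were other scalings, DESeq2 1.42.0, no filter, the replicate block, fits on 6 libraries, and each library left out in turn.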

Additional observations from a re-analysis of the deposited data

How the results depend on the processing

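The count of guidance genes called lower in Intermediate than in Progenitor depended on the processing: 5 were called, against 8 with no filter on low counts, 8 in a fit on the 6 libraries of both groups only, and 2 to 7 with each library left out in turn (2 without Progenitor replicate 3 and 3 without each Intermediate library). The other counts of called genes stayed within 1.5 times their value under every alternative run. The replicate block gave 20 calls higher and 6 lower for Intermediate, 20 and 25 in the SMC populations, 15 and 25 in SMC2 against SMC1, and 57 for any difference. Apart from Ephb2 and Robo2, the paired fit changed no call between Intermediate and Progenitor. Scaling shifted the reference: upper-quartile factors moved the median log2 change of all genes between Intermediate and Progenitor from 0.08 to -0.08 and that between SMC2 and SMC1 from -0.003 to 0.11. Calls over all genes between Intermediate and Progenitor went from 2419 higher and 1799 lower to 1593 and 2473, and those between SMC2 and SMC1 from 3139 and 3439 to 3729 and 2843. Under that scaling the guidance genes called were 16 higher and 5 lower, and 15 higher and 24 lower. For the genes given in every library, 33 log2 changes were refitted under up to 18 alternatives, 584 values in all. None changed sign and 573 kept their call. The 11 lost calls were those of Sema3a, Plxnd1 and Efnb1 between Intermediate and Progenitor with 1 library left out. Genes under 4 CPM rest on few counts, and a difference in them may not be detectable at this depth.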
